A study of Arabidopsis thaliana with 2 samples.

Results

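Alpha-expansins are small secreted proteins of the plant cell wall, and 10 of their genes were followed in rosettes of a PBL19 C3A transgenic line and of the wild type. The 10 genes, EXPA1, EXPA3, EXPA4, EXPA5, EXPA6, EXPA8, EXPA10, EXPA11, EXPA15 and EXPA16, were taken by their identifiers out of 23147 genes listed in either library. RefSeq names 16 further alpha-expansin genes, which are described only for comparison. The first group was a pbl19 null mutant of the Col-0 accession that carried a PBL19 transgene with cysteine 3 replaced by alanine, fused to GFP and an HA tag and run from the PBL19 promoter. The second was Col-0 wild type. Both groups were untreated rosettes of 28 days, and each was 1 RNA-seq library. The sources used here do not say how many plants went into a library, or whether the transgenic line was 1 clone or several. The null allele, the changed cysteine, the tags and the PBL19 level differ between the libraries together and cannot be told apart.

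Expansins loosen the wall without cutting its polymers, by weakening the contacts between cellulose and xyloglucan, so that turgor can stretch the cell. They act best at acid pH, and the acid comes from proton pumps of the plasma membrane that auxin switches on through small SAUR proteins. In leaves, alpha-expansins are known for their part in blade and petiole growth and, for EXPA1, in the movement of guard cells.

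The PBL19 C3A library held 12001808 estimated counts and the wild type library 11937705. PBL19 itself, which checks the labels, was at 466 FPKM in PBL19 C3A and 6.68 FPKM in the wild type. FPKM is the estimated count of a gene divided by its length and by the size of the library, so levels of different genes can be set side by side. Each genotype had a single library, so no replicate error and no test could be had, and every difference below is one between these libraries. Intervals are 95% counting intervals and hold counting error only, not variation between plants. In a whole rosette, fewer cells of a kind and less RNA per cell cannot be told apart. Leaf mesophyll markers were abundant, with 6 genes that summed to 14203 FPKM in PBL19 C3A and 23278 FPKM in the wild type. All 6 had log2 ratios below 0, with a median of -0.75, and their part in the values below was not tested. Flower markers were nearly absent, with 3 of 8 listed at all (AG, PI and SEP3, each under 1 FPKM) and AP1, AP3, LFY, CAL and CRC at 0 in both libraries. Root markers were present in both, with 9 genes that summed to 56.6 FPKM in PBL19 C3A and 89.5 FPKM in the wild type.

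The alpha-expansin mix differed between the libraries more than its total did. In PBL19 C3A a single gene, EXPA1, led the family at 139 FPKM, while EXPA8 (72.6 FPKM) and EXPA1 (64.6 FPKM) stood close together at the head of the wild type order. EXPA1, EXPA10, EXPA6, EXPA3 and EXPA4 were higher in PBL19 C3A by 1.33-fold to 2.16-fold. EXPA11, EXPA8 and EXPA5 were lower, at 0.511, 0.628 and 0.750 times the wild type level. In FPKM as deposited, the genes other than EXPA1 summed to nearly the same level, 282 in PBL19 C3A and 280 in the wild type. That sum was not recomputed under other scalings of the libraries.

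The genes are related but can be told apart in sequencing. Coding sequences of the 10 members were identical at 57.8% to 81.1% of aligned bases, with a median of 64.2%. The stretch of 60 coding bases without gaps that had the most positions identical in all 10 genes is shown. It lies at bases 90 to 149 of the EXPA1 coding sequence. It is written on the coding strand from RefSeq (TAIR10.1), and capitals mark bases that differ from EXPA1.
EXPA1: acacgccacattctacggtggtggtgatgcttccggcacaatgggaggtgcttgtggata
EXPA3: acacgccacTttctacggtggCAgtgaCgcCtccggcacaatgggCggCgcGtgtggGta
EXPA4: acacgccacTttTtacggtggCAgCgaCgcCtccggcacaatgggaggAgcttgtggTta
EXPA5: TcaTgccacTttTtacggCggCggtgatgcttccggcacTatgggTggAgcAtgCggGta
EXPA6: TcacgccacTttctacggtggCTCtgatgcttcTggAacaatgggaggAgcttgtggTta
EXPA8: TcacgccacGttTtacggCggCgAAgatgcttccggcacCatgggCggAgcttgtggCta
EXPA10: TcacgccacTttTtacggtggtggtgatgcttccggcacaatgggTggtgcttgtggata
EXPA11: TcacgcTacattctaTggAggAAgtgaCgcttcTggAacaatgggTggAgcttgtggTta
EXPA15: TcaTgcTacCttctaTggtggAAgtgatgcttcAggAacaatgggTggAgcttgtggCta
EXPA16: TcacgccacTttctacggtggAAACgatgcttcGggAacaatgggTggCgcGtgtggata
Of the 60 positions 39 were the same in all 10 genes. EXPA10 differed from EXPA1 at 4 positions and EXPA5, EXPA11 and EXPA15 at 12 each. Over whole transcripts, stretches of 31 bases shared with any other gene were rare, with 2 of 1606 in EXPA1 (shared with EXPA10), 5 of 1542 in EXPA10 (shared with EXPA1 and EXPA15), 3 of 1404 in EXPA15 (shared with EXPA10) and none in the other 7 members. Of the 10 members 9 had whole counts in both libraries, and the exception was EXPA5, with 206.99 counts in the wild type. No member overlapped another annotated gene on either strand.

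EXPA1 (AT1G69530, plus strand of chromosome 1 at 26141726 to 26143538, 4 exons, 275 amino acids) was at 139 FPKM from 2103 counts in PBL19 C3A and 64.6 FPKM from 988 counts in the wild type. It was 2.16-fold higher (2.0 to 2.33), the highest ratio of the 10. On the log2 scale of FPKM + 1 its ratio was 1.1, above that of 93.4% of the genes with at least 1 FPKM in either library. EXPA10 (AT1G26770, plus strand of chromosome 1 at 9259432 to 9261313) is the member closest to EXPA1, with 78% of aligned coding bases identical, and is known from plants with altered EXPA10 levels for its effect on leaf and petiole size. It was at 17.3 FPKM from 188 counts in PBL19 C3A and 10.9 FPKM from 123 counts in the wild type, 1.58-fold higher (1.26 to 2.0). The level of EXPA1 exceeded that of EXPA10 in both libraries, and both genes were higher in PBL19 C3A.

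EXPA15 (AT2G03090, minus strand of chromosome 2 at 916806 to 918671) completes this related trio, with 75.1% of coding bases shared with EXPA10 and 73.5% with EXPA1. It was at 28.6 FPKM from 493 counts in PBL19 C3A and 26.7 FPKM from 458 counts in the wild type, a ratio of 1.07 (0.941 to 1.22). Its level did not differ beyond counting error, while those of both relatives did. The sign of its log2 ratio of 0.09 on the FPKM + 1 scale turned to -0.049 after rescaling to a median gene ratio of 1.

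EXPA4, EXPA6, EXPA3 and EXPA16 form another group of close relatives, in which 3 abundant genes were higher in PBL19 C3A. EXPA4 (AT2G39700, minus strand of chromosome 2 at 16543832 to 16545746) was at 66.7 FPKM in PBL19 C3A and 50.2 FPKM in the wild type, 1.33-fold higher (1.22 to 1.45). EXPA6 (AT2G28950, minus strand of chromosome 2 at 12431338 to 12433796), with 75.6% of coding bases shared with EXPA4, was at 61.8 FPKM in PBL19 C3A and 39.75 FPKM in the wild type, 1.56-fold higher (1.42 to 1.71). EXPA4 and EXPA6 have a single annotated transcript each, so their FPKM ratios do not depend on which transcript was counted.

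EXPA3 (AT2G37640, named EXP3 in RefSeq, minus strand of chromosome 2 at 15787523 to 15790139) was at 28.3 FPKM from 435 counts in PBL19 C3A and 19.9 FPKM from 334 counts in the wild type, 1.42-fold higher (1.23 to 1.64). It has 2 transcripts of 1114 and 1670 bases, and the gene length behind its FPKM was deposited as 1285 bases in PBL19 C3A and 1404 bases in the wild type. The count ratio, which leaves length out, was 1.30, so a part of the FPKM difference comes from the deposited lengths. EXPA16 (AT3G55500, minus strand of chromosome 3 at 20574752 to 20576249) had the coding sequence most like that of EXPA4, at 81.1%, but was close to absent, at 0.53 FPKM from 8 counts in PBL19 C3A and 1.07 FPKM from 16 counts in the wild type. Its ratio of 0.495 had an interval of 0.184 to 1.23, so no difference was detectable at this depth.

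The members that were lower in PBL19 C3A are not close relatives of each other. EXPA11 (AT1G20190, minus strand of chromosome 1 at 6998335 to 6999839) shares at most 62.1% of its coding bases with another member. It was at 23.85 FPKM from 376 counts in PBL19 C3A and 46.7 FPKM from 729 counts in the wild type, a ratio of 0.511 (0.450 to 0.579). Its log2 ratio of -0.94 lay above that of only 3.24% of the genes with at least 1 FPKM, and was -1.09 after rescaling to a median gene ratio of 1. EXPA11 therefore had the lowest log2 ratio of the 10 members on the FPKM + 1 scale.

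EXPA8 (AT2G40610, minus strand of chromosome 2 at 16948791 to 16950705) was the most abundant alpha-expansin of the wild type. It was at 45.6 FPKM from 724 counts in PBL19 C3A and 72.6 FPKM from 1147 counts in the wild type, a ratio of 0.628 (0.571 to 0.690). EXPA5 (AT3G29030, minus strand of chromosome 3 at 11011262 to 11013451), known from Arabidopsis stems as an expansin of brassinosteroid-dependent growth, was at 9.10 FPKM in PBL19 C3A and 12.1 FPKM in the wild type, a ratio of 0.750 (0.605 to 0.927). EXPA8 held the fourth place of the family order in PBL19 C3A and the first in the wild type.

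**Figure D1:**
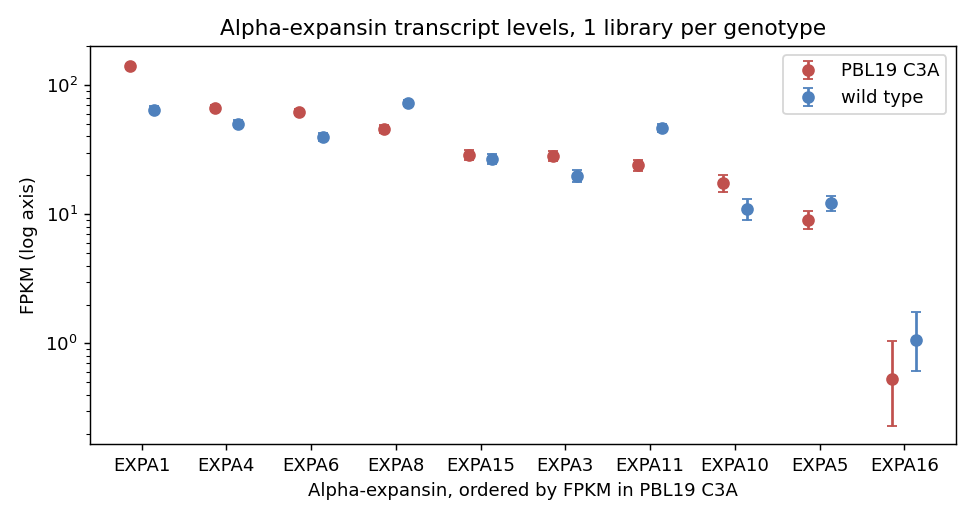
FPKM of the 10 alpha-expansins (log axis) in the PBL19 C3A library (red) and the wild type library (blue), with bars for the exact 95% Poisson counting interval of the single library. EXPA1 stands apart at 139 FPKM in PBL19 C3A, EXPA8 and EXPA11 are lower in PBL19 C3A than in the wild type, and EXPA16 is near or below 1 FPKM in both.

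**Figure D2:**
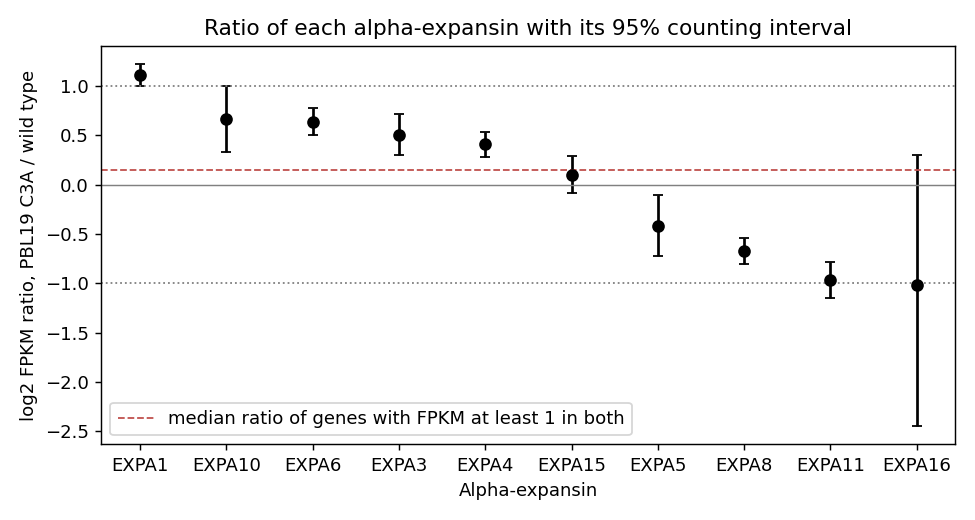
Log2 FPKM ratio of each alpha-expansin, PBL19 C3A over wild type, with its 95% counting interval. The dashed line is the median log2 ratio of 0.15 over genes with at least 1 FPKM in both libraries, the dotted lines mark 2-fold, and the genes spread from EXPA1 at the top to EXPA11 and the thinly counted EXPA16 at the bottom.

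Set against all genes, the members spread in both directions. All 10 members reached 1 FPKM in at least 1 library. At least 2-fold higher on the FPKM + 1 scale was 1 member, EXPA1, and at least 2-fold lower was none, where 7.89% of 19527 genes were higher and 2.85% lower by the same rule. After rescaling to a median gene ratio of 1 no member was at least 2-fold higher and EXPA11 was at least 2-fold lower, with 6.34% of genes higher and 3.95% lower. In numbers of genes, 1541 were higher and 557 lower as deposited, and 1236 and 770 after that rescaling. These shares are near the background and are not a result about the family. The counting interval of the ratio lay wholly above 1 for 5 members, against 38.3% of genes, and wholly below 1 for 3 members, against 20.0% of genes. The median log2 ratio of the members was 0.25, against 0.14 for all 19527 genes. Of the members 6 lay above 0 and 4 below as deposited, and 5 on each side after rescaling. The median gene also lay above 0 as deposited, so this split is not a result about the family. The share of all genes on each side of 0 was not computed, here or for the gene lists below.

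Comparing members with each other does not depend on how the libraries were scaled. For each of the 45 pairs, the ratio of the FPKM levels of both genes in PBL19 C3A was divided by the same ratio in the wild type. The counting interval excluded 1 for 35 pairs. The same share over pairs of all genes was not computed. Among single genes the interval of the ratio lay wholly above 1 for 38.3% and wholly below 1 for 20.0%. The number of pairs is therefore not a result about the family. EXPA1 was 5.84 times the level of EXPA11 in PBL19 C3A and 1.38 times in the wild type, a shift of 4.23-fold (3.65 to 4.89). EXPA1 was 3.06 times the level of EXPA8 in PBL19 C3A and 0.889 times in the wild type, a shift of 3.44-fold (3.05 to 3.88). EXPA8 and EXPA1, the most abundant pair of the wild type, thus stood in the other order in PBL19 C3A, where EXPA4 and EXPA6 lay between them.

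In order of level, PBL19 C3A had EXPA1, EXPA4, EXPA6, EXPA8, EXPA15, EXPA3, EXPA11, EXPA10, EXPA5 and EXPA16. The wild type had EXPA8, EXPA1, EXPA4, EXPA11, EXPA6, EXPA15, EXPA3, EXPA5, EXPA10 and EXPA16. Neighbours whose levels did not differ beyond counting error were EXPA4 and EXPA6, and EXPA15 and EXPA3, in PBL19 C3A, and EXPA4 and EXPA11, and EXPA5 and EXPA10, in the wild type. EXPA11 held the seventh place in PBL19 C3A and the fourth in the wild type.

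The family sum was 421 FPKM in PBL19 C3A and 345 FPKM in the wild type, a ratio of 1.22 (1.18 to 1.27). Without EXPA1, the member with the highest ratio, the deposited values gave a ratio of 1.01 (0.966 to 1.05). On the log2 scale that is 0.0085, below the median of 0.149 over genes with at least 1 FPKM in both libraries. The sum without EXPA1 was not recomputed after rescaling, so its evenness holds for the deposited values only. EXPA1 made up 33.1% of the summed FPKM in PBL19 C3A and 18.7% in the wild type. Counted in reads, EXPA1 held 30.6% of member counts in PBL19 C3A (exact Clopper-Pearson interval 29.5% to 31.7%) and 17.5% in the wild type (16.5% to 18.5%). EXPA8 made up 10.8% of the summed FPKM in PBL19 C3A and 21.1% in the wild type, and EXPA11 made up 5.66% in PBL19 C3A and 13.6% in the wild type. Over all 26 alpha-expansins the sums lay closer, at 462 FPKM in PBL19 C3A and 409 FPKM in the wild type.

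**Figure D3:**
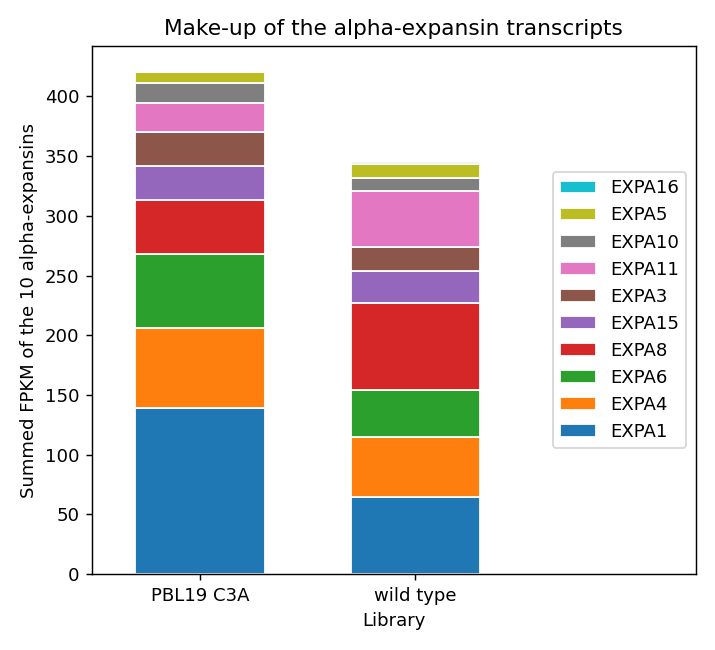
Summed FPKM of the 10 alpha-expansins in the PBL19 C3A library (left) and the wild type library (right), stacked by gene. The EXPA1 block reaches 139 FPKM on the left and 64.6 FPKM on the right, while the blocks of EXPA8 and EXPA11 are smaller on the left.

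Likeness in coding sequence went with likeness in ratio in some pairs and not in others. The log2 ratios of EXPA4 and EXPA6 differed by 0.22 and those of EXPA1 and EXPA10 by 0.48, while those of EXPA4 and EXPA16, the most similar pair, differed by 0.84. That last value is uncertain, because EXPA16 had 8 and 16 counts and its log2 ratio ranged from -0.89 to -0.13 under the alternatives. EXPA1 and EXPA8, with 69.2% of coding bases identical, differed by 1.76. The pairs share genes, so the points are not independent.

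**Figure D4:**
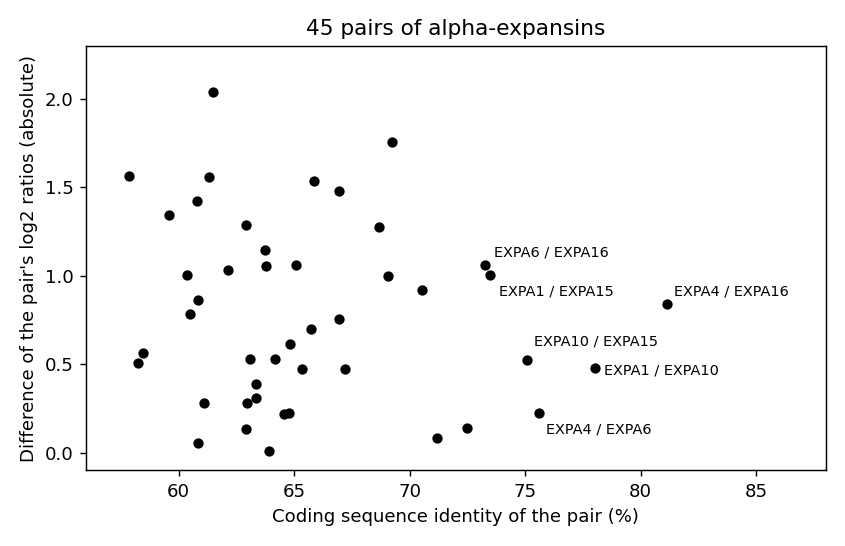
Each of the 45 pairs of alpha-expansins by the identity of their coding sequences (x axis, percent of aligned bases) and the absolute difference of their log2 ratios of FPKM + 1 (y axis), with the 6 most similar pairs named. The named pairs lie between 0.22 and 1.06 on the y axis, and pairs under 70% identity spread from near 0 to 2.04. Pairs with EXPA16 rest on its 8 and 16 counts.

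The upstream sequences of EXPA1 and EXPA10 are shown because these close relatives were both higher in PBL19 C3A. Each is the stretch of 300 bases before the annotated gene start on the plus strand of chromosome 1 (RefSeq, TAIR10.1), chr1:26141426-26141725 for EXPA1 and chr1:9259132-9259431 for EXPA10. Capitals mark each base that lies in a run of at least 8 bases, with at least 3 of C or G, that occurs in both. In EXPA10 the run of 14 bases overlaps a run of 8 bases, so both stand as a single longer stretch of capitals. That longer stretch does not occur whole in EXPA1, where these runs lie apart.
EXPA1: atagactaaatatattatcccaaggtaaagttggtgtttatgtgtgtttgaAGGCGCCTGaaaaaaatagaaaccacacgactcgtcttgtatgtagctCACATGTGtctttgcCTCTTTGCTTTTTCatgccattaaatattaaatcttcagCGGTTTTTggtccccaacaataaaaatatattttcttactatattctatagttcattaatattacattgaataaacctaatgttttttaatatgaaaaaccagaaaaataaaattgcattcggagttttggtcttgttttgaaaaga
EXPA10: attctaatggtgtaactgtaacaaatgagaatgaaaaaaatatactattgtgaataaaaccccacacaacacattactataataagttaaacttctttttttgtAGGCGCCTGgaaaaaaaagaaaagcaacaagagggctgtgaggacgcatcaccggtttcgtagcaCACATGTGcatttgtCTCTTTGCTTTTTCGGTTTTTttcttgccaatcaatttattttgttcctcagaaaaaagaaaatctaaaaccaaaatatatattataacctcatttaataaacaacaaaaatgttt
The runs AGGCGCCTG, CACATGTG and CTCTTTGCTTTTTC stand in the same order in both. The longest shared run was 14 bases, and the pair shared 8 such stretches of 8 bases, against 0 to 5 (median 0) in the other 44 pairs of members. This way of comparing promoters was chosen after the sequences had been seen, and shared letters are a description and not a binding site.

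Both strands of the 10 upstream stretches were also searched for short motifs known from growth and defence genes. The auxin response element TGTCTC was found in 3 members, EXPA5, EXPA6 and EXPA10, and in 13.0% of 27443 stretches before protein-coding genes. The W-box core TTGAC, the binding motif of WRKY factors, was found in EXPA4 and EXPA8 and in 50.4% of all stretches. The TCP motif GGNCCC was found in EXPA1 and in 8.20% of all stretches. The G-box CACGTG, the brassinosteroid response element CGTGCG, the core TGACG of TGA factors (which overlaps in letters with the W-box core) and the GCC box GCCGCC had no match in the 10 members, against 7.09%, 1.78%, 21.3% and 2.26% of all stretches. Members that were higher and members that were lower in PBL19 C3A both occur among those with a match.

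The 16 alpha-expansins outside this group summed to 40.65 FPKM in PBL19 C3A and 64.2 FPKM in the wild type. Of the 16 genes 6 were listed in neither library, 3 stayed under 1 FPKM, and 5 of the remaining 7 lay below 0. Those 7 had a median log2 ratio of -0.65, with 2 genes at least 2-fold lower and none as much higher. EXPA14 was at 10.03 FPKM in PBL19 C3A and 22.3 FPKM in the wild type, a ratio of 0.450 (0.365 to 0.554). In the wild type EXPA14 thus lay above the members EXPA3 (19.9 FPKM), EXPA5, EXPA10 and EXPA16. The root hair expansin EXPA7 was at 1.95 FPKM in PBL19 C3A and 5.59 FPKM in the wild type, and EXPA18, also of root hairs, was at 2.67 FPKM in PBL19 C3A and 6.31 FPKM in the wild type. Both overlap a gene on the opposite strand, and the sources used here do not say whether counting used strand. Of 8 root markers with at least 1 FPKM, among them EXPA7, 3 were at least 2-fold lower and none at least 2-fold higher. Their median log2 ratio was -0.88, with 7 below 0 and 1 above. The part of root tissue in these values was not tested.

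Beta-expansins and expansin-like genes held one extreme value. Of 12 genes 7 reached 1 FPKM, and their median log2 ratio was -0.26, with 1 gene past 2-fold upward and 2 past it downward. The gene at least 2-fold higher was PNP-A, which RefSeq lists under an expansin-like synonym and which encodes a secreted peptide of the expansin superfamily without the second expansin domain. It was at 69.65 FPKM from 1777 counts in PBL19 C3A and 0.16 FPKM from 4 counts in the wild type, 435-fold higher (170 to 1599). EXLB1 was at 5.63 FPKM in PBL19 C3A and 17.6 FPKM in the wild type, and EXPB1 at 5.56 FPKM in PBL19 C3A and 14.1 FPKM in the wild type.

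Among the proton pumps that acidify the wall, 6 of the measured genes lay below 0 and 2 above. Of 11 plasma membrane proton pump genes 8 reached 1 FPKM, and their median log2 ratio was -0.50, with 2 genes past 2-fold downward and none upward. AHA11 was at 10.6 FPKM in PBL19 C3A and 28.4 FPKM in the wild type, a ratio of 0.374 (0.334 to 0.418). AHA3 was at 28.8 FPKM in PBL19 C3A and 60.9 FPKM in the wild type, and AHA7 at 1.14 FPKM in PBL19 C3A and 3.17 FPKM in the wild type. The abundant pumps AHA1 and AHA2, named after their values were seen, were at 168 and 155 FPKM in PBL19 C3A, against 151 and 156 FPKM for the wild type, and divide some reads between them. The ratio of AHA1 was 1.12 (1.08 to 1.15) and that of AHA2 0.996 (0.961 to 1.03). AHA11 and AHA7 overlap other genes, which makes the source of part of their reads uncertain.

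SAUR proteins of the SAUR19 and SAUR63 subgroups keep the pumps active, and their transcripts were scarce in both libraries. Of 14 genes 12 reached 1 FPKM and 11 of these lay below 0, with a median log2 ratio of -0.38. None was past 2-fold on the FPKM + 1 scale. With a pseudocount of 0.1, 1 gene was past 2-fold downward. Counts were low, and for most of the 12 genes the counting interval of the ratio included 1. SAUR24, the most counted and named after its values were seen, had 54.51 counts in PBL19 C3A and 62.89 in the wild type. Its ratio was 0.862 (0.594 to 1.27). SAUR21 was at 2.83 FPKM in PBL19 C3A and 5.52 FPKM in the wild type, SAUR20 at 5.48 FPKM in PBL19 C3A and 8.89 FPKM in the wild type, and AT1G29510 at 1.22 FPKM in PBL19 C3A and 2.65 FPKM in the wild type. SAUR21 and AT1G29510 have fractional counts, divided with near copies.

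Transcription factors of growth went both ways, with 12 of 21 genes above 0. Their median log2 ratio was 0.10 with the deposited values but -0.0395 once the median gene ratio was set to 1, and on the FPKM + 1 scale 1 gene was past 2-fold downward and none upward. With a pseudocount of 0.1 in place of 1, 1 gene was past 2-fold upward, and under each of 3 ways of rescaling the libraries 2 were past it downward. PRE1, a small helix-loop-helix protein that promotes elongation, was at 0.99 FPKM in PBL19 C3A and 3.38 FPKM in the wild type. PIF4, a light- and temperature-regulated factor that promotes elongation, was at 69.4 FPKM in PBL19 C3A and 126.67 FPKM in the wild type. ANT, which prolongs cell division in young organs, was at 14.8 FPKM in PBL19 C3A and 7.28 FPKM in the wild type.

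All 8 primary wall cellulose synthesis genes with at least 1 FPKM lay below 0, with none past 2-fold and a median log2 ratio of -0.33. The catalytic subunits CESA2, CESA1 and CESA6 were at 17.1, 63.3 and 34.5 FPKM in PBL19 C3A, against 31.9, 91.95 and 47.9 FPKM for the wild type. Among 7 kinases and peptides that monitor the wall none passed 2-fold and the median was 0.16. LLG1, the partner protein of the receptor kinase FERONIA, was at 64.2 FPKM in PBL19 C3A and 48.2 FPKM in the wild type, and the peptide RALF1 at 24.3 FPKM in PBL19 C3A and 18.2 FPKM in the wild type. The peptide RALF23 was at 45.4 FPKM in PBL19 C3A and 57.4 FPKM in the wild type. CESA1 and LLG1 overlap genes on the opposite strand, and CESA6 and LLG1 have fractional counts.

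**Figure D5:**
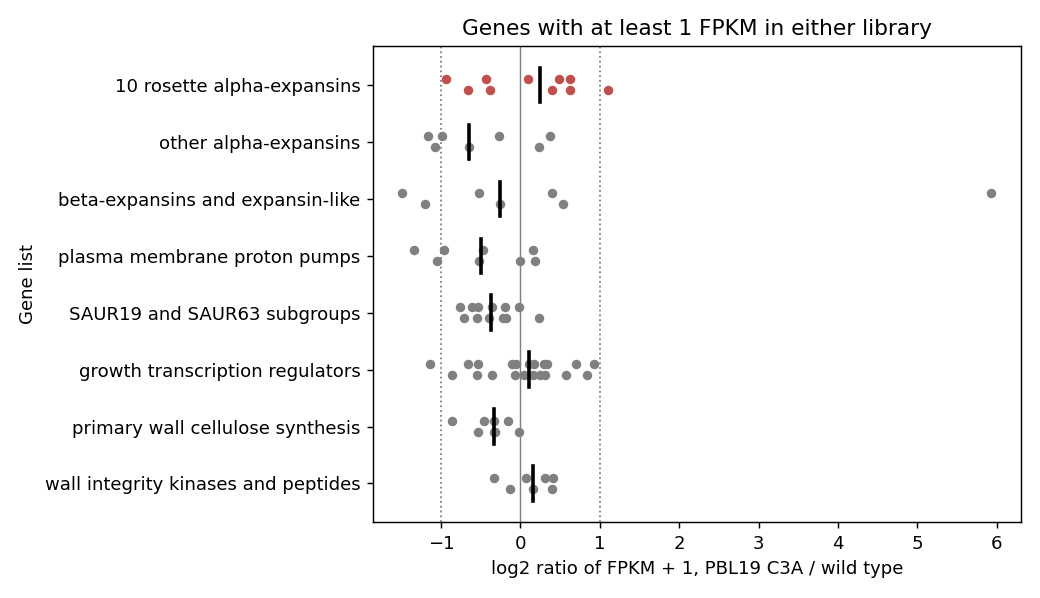
Log2 ratio of FPKM + 1, PBL19 C3A over wild type, of each gene with at least 1 FPKM in either library, by gene list, with black bars for list medians and dotted lines at 2-fold. The 10 rosette alpha-expansins (red) have a median of 0.25, the other alpha-expansins lie mostly to the left with a median of -0.65, and PNP-A is the single point far to the right at 5.93.

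Guard cells are a place where EXPA1 is known to act, and their markers went in both directions. The 10 markers of guard cells and the stomatal lineage, of which none was at 0, summed to 36.3 FPKM in PBL19 C3A and 40.7 FPKM in the wild type, with 4 above 0 and 6 below and a median log2 ratio of -0.39. Of the early lineage, EPF2 was at 4.71 FPKM from 46 counts in PBL19 C3A and 0.31 FPKM from 3 counts in the wild type. The ratio of EPF2 was 15.2 with a wide interval, 4.88 to 76.4. SPCH, also of the early lineage, was at 3.13 FPKM in PBL19 C3A and 1.25 FPKM in the wild type. Of the mature guard cell, KAT1 was at 3.37 FPKM in PBL19 C3A and 8.42 FPKM in the wild type. The part of cell make-up in the level of EXPA1 was not tested.

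The genes whose pair of levels lay nearest to that of EXPA1 over the 2 libraries, by distance on the log2 scale of FPKM + 1, were AT1G09200, TRX2 and AT4G01610, at distances of 0.08, 0.12 and 0.16. Nearest to EXPA11 were AT4G15160, AT1G12845 and AT5G62360, at 0.02, 0.04 and 0.04. AT1G09200 was at 132 FPKM in PBL19 C3A and 65.9 FPKM in the wild type, and AT4G15160 at 23.6 FPKM in PBL19 C3A and 46.6 FPKM in the wild type. With 2 libraries, such likeness says no more than that both levels were close.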

How the data were processed

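Rosette mRNA of 1 PBL19 C3A library and 1 wild type library was sequenced as paired-end reads. The authors trimmed reads with Trimmomatic 0.36 and aligned them with HISAT to TAIR10, per the submitters' processing notes. No source used here names the quantification tool. For each gene the authors deposited an expected count (an estimated number of reads), an FPKM and a length, per the file headers. Only genes above 0 are listed, and an unlisted gene was set to 0.

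The ratio was log2 of FPKM + 1, PBL19 C3A over wild type, over genes with at least 1 FPKM in either library. A plain fold is the FPKM ratio with the exact conditional 95% interval of the rounded counts. Shifts between member pairs have a log-normal 95% counting interval. Count ratios and their exact intervals were tested on simulated counts that held Poisson counting error only, so that test says nothing on variation between plants. It left out genes with few counts, EXPA16 among them. The log2 ratio of FPKM + 1, the step from count ratio to FPKM ratio and the log-normal interval were not tested. Members, lists and tests were chosen with earlier results of these data known. Named genes were the members, up to 3 genes per list with the largest ratio in either direction, and the 3 genes nearest to the members with the highest and lowest ratio. Gene models and sequences are from RefSeq TAIR10.1, whose lengths equalled the deposited ones for the 6 members with 1 transcript, and coding sequences were aligned with MAFFT 7.526. Python 3.11.15, scipy 1.17.1 and, for the TMM alternative, edgeR 4.0.16 were used. The 9 alternatives vary the pseudocount, the filter, the scaling, the gene length and the floor for unlisted genes.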

Additional observations from a re-analysis of the deposited data

How the results depend on the processing

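Each comparison rests on 1 library per genotype, so no value has a replicate check. No paired analysis was possible because each group has 1 sample. Of 90 member ratios recomputed under 9 alternatives, 73 stayed within the counting interval of the reported value, 14 moved beyond it and 3 changed sign. The 3 were those of EXPA15. Its log2 ratio was -0.049 once the median gene ratio was set to 1. It was -0.063 when the summed FPKM of all but the 100 most abundant genes was made equal, and -0.054 under TMM scaling. EXPA1 ranged from 0.92 to 1.11 and EXPA11 from -1.10 to -0.84 on the log2 scale. Under each of those 3 scalings 0 members were past 2-fold upward and 1 downward, and the log2 ratio of the summed FPKM, 0.29 as deposited, was 0.14, 0.13 and 0.12 in the same order. The difference in the EXPA1 share, 14.4 percentage points for PBL19 C3A minus wild type, was 14.2 points both with TMM-scaled counts and with mean gene lengths, and the other alternatives cannot change it by their construction. Over all genes, a pseudocount of 0.1 put 2067 past 2-fold upward and 911 downward, and 735 were higher and 243 lower with a pseudocount of 5. The higher and lower counts were 1215 and 796 with the 100 most abundant genes left out of the scaling, and 1210 and 765 under TMM. The median of growth transcription factors was -0.0395, -0.053 and -0.044 under the 3 scalings, and that of wall integrity genes -0.0032 under the second of them. The cause of these moves other than the scaling itself was not tested. Depth limits EXPA16, with 8 and 16 counts.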
